A study of Sus scrofa with 61 samples.

Results

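Creatine kinases, the enzymes that make creatine, its transporter and the adenylate enzymes that work beside them were followed in the longissimus dorsi muscle of pig fetuses. The members were CKM, CKB, CKMT2, GATM, GAMT, SLC6A8, AMPD1 and AK1, and every array probe that carries one of these symbols, from the array's own gene names or from the gene lists of the study, was used. This gave 41 probes for 7 of the 8 genes, out of 60305 probes and 15408 gene symbols on the array. No probe was found by this rule for GAMT. All 41 probes were well above background on all 61 arrays, so none was lost to the filter that kept 42436 probes for testing.

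The 61 fetuses were males taken by caesarean at gestational day 90 or day 110. Purebred Large White (LW) fetuses numbered 8 at day 90 and 9 at day 110, and purebred Meishan (MS) fetuses 8 and 7. The cross from MS sows and LW boars (LWMS) had 8 and 8 fetuses, and the cross from LW sows and MS boars (MSLW) had 8 and 5. Because LW and MS semen had been pooled for insemination, littermates could be of different genotypes. The labels do not give the sow of a fetus, littermates were therefore counted as separate samples, and the p-values measure the spread between fetuses and not between sows. Purebred LW fetuses had LW mothers and purebred MS fetuses MS mothers, so the comparison of the breeds lies between sows. A litter taken by caesarean has the same age throughout, so the comparison of ages lies between sows too. For both comparisons the p-values can be too small.

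Creatine kinases move a phosphate group between ATP and creatine, which lets phosphocreatine buffer and carry energy in cells that contract. CKM is the muscle form in the cytosol, where part of it sits at the M-band and at the calcium pump. CKB is the brain form, which developing muscle also makes, and CKMT2 is the sarcomeric form of the mitochondrial intermembrane space. GATM and GAMT make creatine from arginine, glycine and a methyl group, mostly outside muscle, and SLC6A8 imports it. AK1 interconverts ADP, ATP and AMP in the cytosol, and AMPD1 deaminates AMP to IMP.

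The probe sequences show which probes read different parts of a transcript and which share their target. Only those the results turn on are printed, as they stand on the array, and their places in the genome are not given because no genome of the array's annotation was used here. The CKM probes that come first stand on the study's interaction list, and they share no run of 15 bases or more with each other.
CKM A_72_P530167: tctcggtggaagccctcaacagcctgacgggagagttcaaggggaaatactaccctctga
CKM A_72_P603616: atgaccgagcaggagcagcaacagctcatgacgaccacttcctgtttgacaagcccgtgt

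Of the 12 CKMT2 probes, the following pair shares 30 bases (capitals), so its values are not independent readings of the gene.
CKMT2 A_72_P571084: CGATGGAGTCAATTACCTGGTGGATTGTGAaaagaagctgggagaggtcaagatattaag
CKMT2 A_72_P613851: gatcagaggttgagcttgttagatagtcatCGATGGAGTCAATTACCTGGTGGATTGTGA

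The creatine transporter is read by 3 probes, 2 of which share 52 bases (capitals).
SLC6A8 O9451: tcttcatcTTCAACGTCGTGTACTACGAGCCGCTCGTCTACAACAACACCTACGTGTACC
SLC6A8 A_72_P338743: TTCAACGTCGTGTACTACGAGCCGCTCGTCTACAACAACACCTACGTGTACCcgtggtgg

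For AMPD1, the pair below shares 35 bases (capitals), and the single AK1 probe found by the rule follows.
AMPD1 A_72_P208487: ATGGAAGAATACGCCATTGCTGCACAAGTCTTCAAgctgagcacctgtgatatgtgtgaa
AMPD1 A_72_P649894: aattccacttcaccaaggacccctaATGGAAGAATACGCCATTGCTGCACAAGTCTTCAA
AK1 O14577: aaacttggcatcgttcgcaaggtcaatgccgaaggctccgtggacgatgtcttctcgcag

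Shared runs of 15 bases or more joined 5 pairs of CKM probes, 11 of CKMT2, 3 of GATM, 2 of AMPD1 and 1 of SLC6A8. The longest run that a CKM probe shared with a CKB or CKMT2 probe was 11 bases. Values are normalised log2 intensities from 1 colour arrays, a difference of 1 is a doubling, and a probe was called when its adjusted p in the limma fit of all kept probes was below 0.01. A gene with several probes is described by the brightest, and the others are given as ranges. Levels of different probes are not compared with each other, since each probe has its own response. In this whole tissue, fewer cells of a type and less RNA per cell cannot be told apart.

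Quantile normalisation gives each array the same distribution, and this bears on the CKM probes, which lie near its top. The 11 CKM probes ranked between 13 and 915 of the 42436 kept probes over the arrays. With each array set to its own 75th percentile instead, the age change of the 756 brightest probes (mean above 16) moved by a median of 0.32 in LW and 0.73 in MS. The median of all kept probes went from 0.03 to 0.05 for LW, and for MS from 0.03 to 0.12. Values after 75th percentile scaling are therefore given beside the member genes and gene lists that it moved most. How many of all kept probes are called under that scaling was not counted. Of the muscle fibre markers 9 of 9 had a kept probe, and their summed level lay between 20.53 and 21.07 in all 61 fetuses. Over the same days, 5 of 5 fibroblast markers fell in each genotype. Their summed level had a median of 18.37 at day 90 and 17.37 at day 110 for LW, and of 18.45 and 16.36 for MS. Of 5 endothelial markers, 3 fell and 1 rose in each genotype. The part of these shifts in the results below was not tested.

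Of the 41 member probes, 25 were called higher at day 110 in LW, against a background of 21.8% of all probes, and 2 lower (23.5%). In MS, 25 rose (28.6%) and 6 fell (28.1%). In LWMS, 25 rose (25.1%) and 9 fell (25.7%), and in MSLW 24 rose (20.8%) and 9 fell (23.8%). Since 5 of the genes have several probes each, the counts below are given by gene and not as 41 independent readings. The share of all kept probes whose groups do not overlap was not counted. Statements on overlap below therefore describe the members and do not set them apart from other probes.

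**Figure D1:**
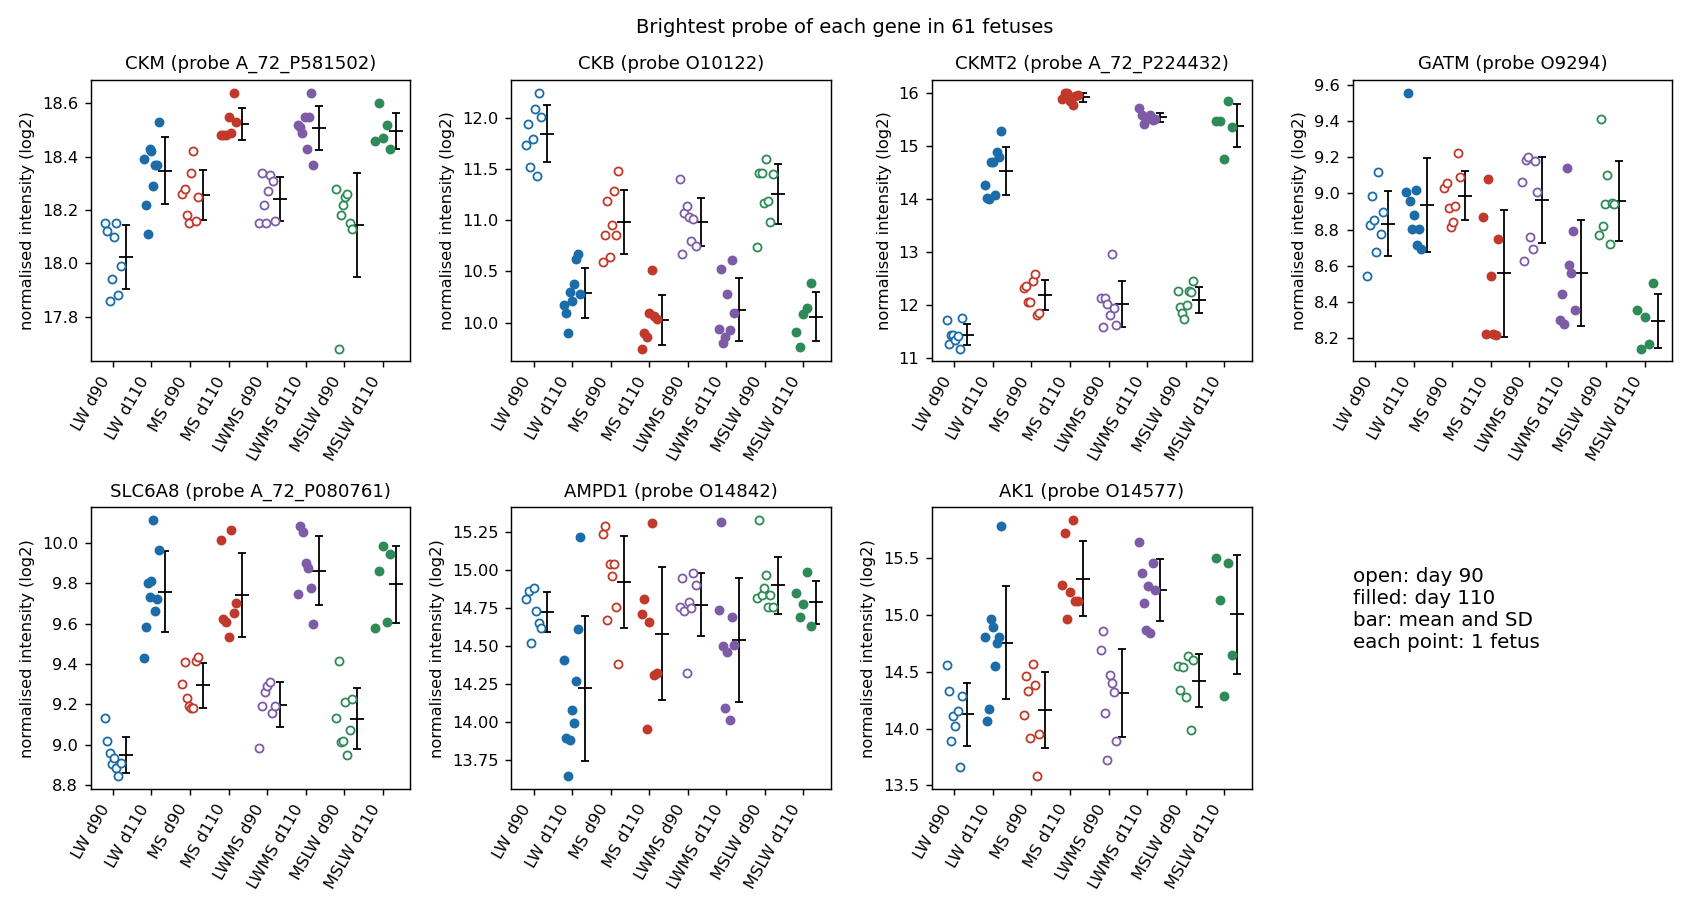
Normalised intensity (log2) of the brightest probe of each gene, 1 point per fetus (open for day 90, filled for day 110), with the mean and SD beside each group. CKMT2 rises in every genotype without overlap between days, CKB falls in every genotype without overlap, and AMPD1 overlaps between days in all 4 genotypes.

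CKMT2, the mitochondrial creatine kinase, showed by far the largest age change of the members. In LW its brightest probe read 11.18, 11.43 and 11.76 (lowest, median, highest; n = 8) at day 90 and 13.99, 14.69 and 15.27 (n = 9) at day 110. In MS it read 11.82, 12.19 and 12.58 (n = 8) and then 15.77, 15.94 and 16.00 (n = 7). The days did not overlap in either breed, and at day 110 the lowest MS fetus stood above the highest LW fetus. In LWMS the probe went from 11.58, 11.98 and 12.97 (n = 8) to 15.41, 15.53 and 15.70 (n = 8). In MSLW it went from 11.74, 12.13 and 12.46 (n = 8) to 15.47, 15.46, 14.74, 15.85 and 15.35 in the 5 fetuses of day 110. The spread differed between groups at day 110, with an SD of 0.45 in LW and 0.09 in MS.

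These values are a rise of 3.07 ± 0.15 (log2, SE) in LW, or 8.40-fold, of 3.72 ± 0.16 in MS (13.2-fold), of 3.51 ± 0.15 in LWMS and of 3.27 ± 0.17 in MSLW. The adjusted p (limma) ran from 5.1e-23 in MSLW to 6.5e-28 in MS. All 12 CKMT2 probes were called higher in all 4 genotypes, by 3.06 to 3.37 in LW and 3.72 to 4.44 in MS, and for all 12 the days did not overlap in any genotype. On each of the 8 slides the probe rose with age, by 2.76 to 3.99. CKMT2 was also higher in MS than in LW, by 0.74 ± 0.15 at day 90 (adjusted p = 1.6e-04, limma) and by 1.39 ± 0.15 at day 110 (adjusted p = 8.8e-11, limma), which is 2.63-fold. At day 90, 11 of 12 probes were called and 7 did not overlap between breeds, and at day 110 all 12 were called and did not overlap.

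CKM, the cytosolic muscle form, rose with age in all 4 genotypes, but by an amount that depended on the probe and on the scaling. Its brightest probe, A_72_P581502, read 17.86, 18.05 and 18.15 (n = 8) in LW at day 90 and 18.11, 18.37 and 18.53 (n = 9) at day 110, and 18.15, 18.26 and 18.42 (n = 8) and 18.48, 18.49 and 18.64 (n = 7) in MS. The days overlapped narrowly in LW and not in MS. In LWMS it read 18.15, 18.24 and 18.34 (n = 8) and then 18.37, 18.52 and 18.64 (n = 8), and in MSLW 17.68, 18.20 and 18.28 (n = 8) and then 18.46, 18.60, 18.47, 18.52 and 18.43. Neither cross overlapped between days, and 1 MSLW fetus of day 90 lay well below the other 7.

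This probe rose by 0.32 ± 0.06 in LW and 0.27 ± 0.06 in MS. Among the crosses it rose by 0.27 ± 0.06 (LWMS) and 0.35 ± 0.07 (MSLW; adjusted p between 5.5e-06 and 2.5e-04 over the 4 genotypes, limma). After 75th percentile scaling the rise was 0.62, 1.02, 0.85 and 0.91 in LW, MS, LWMS and MSLW. Of the 11 CKM probes, 9 were called higher in each genotype, and the other 2 moved by -0.11 to 0.09. Those 2 are A_72_P176246 and A_72_P227527, the only CKM probes that hold the polyadenylation hexamer AATAAA, and they share 51 bases. After 75th percentile scaling all 11 were called higher in each genotype, by 0.28 to 1.03 in LW and by 0.64 to 2.19 in MS. Under the same scaling 8 of 9 fibre markers rose in LW and 9 of 9 in MS, with median changes of 0.41 and 1.00. In the reported fit 3 of 9 rose in LW, and 5 rose and 1 fell in MS, with medians of 0.09 and 0.34.

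The CKM probes on the study's interaction list had larger age changes than the brightest one. A_72_P530167 read 15.79, 15.98 and 16.19 (n = 8) in LW at day 90 and 16.16, 16.74 and 17.57 (n = 9) at day 110. In MS it read 15.91, 16.34 and 16.67 (n = 8) and then 17.63, 17.72 and 18.00 (n = 7). The LW fetuses of day 110 thus spread from the level of day 90 almost to that of MS, with an SD of 0.46 against 0.13 in MS. The rise was 0.70 ± 0.13 in LW (1.62-fold) and 1.46 ± 0.14 in MS (2.75-fold), with adjusted p = 6.1e-06 and 6.2e-14 (limma). In LWMS it went from 15.66, 16.27 and 16.34 (n = 8) to 16.95, 17.39 and 17.52 (n = 8). In MSLW it went from 15.99, 16.32 and 16.75 (n = 8) to 17.54, 17.27, 16.81, 17.44 and 16.90, and neither cross overlapped between days. A_72_P603616 rose by 0.68 ± 0.13 in LW and 1.43 ± 0.13 in MS.

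**Figure D2:**
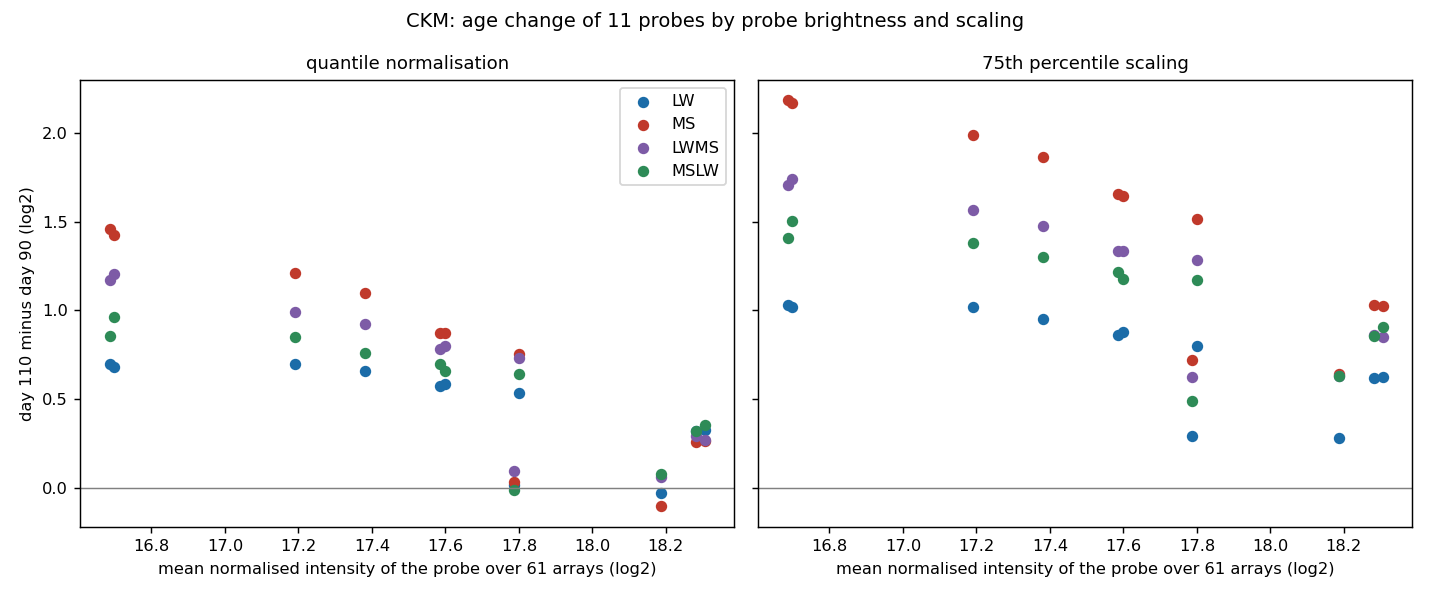
Age change (day 110 minus day 90, log2) of the 11 CKM probes in the 4 genotypes, against the mean normalised intensity of the probe, after quantile normalisation (left) and after 75th percentile scaling (right). Probes at the bright end move less after quantile normalisation, and all points lie above 0 after 75th percentile scaling, up to 2.19 in MS.

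The breeds differed in CKM at day 110 by more than at day 90 for these probes, and the test of that difference is given with the other members below. A_72_P530167 was higher in MS by 1.08 ± 0.13 (adjusted p = 3.1e-09, limma) and A_72_P603616 by 1.13 ± 0.13 (adjusted p = 3.7e-10, limma), with no overlap between breeds. In all, 7 of 11 probes were called higher in MS at day 110 and these 7 did not overlap, while the brightest probe differed by 0.17 ± 0.06 (adjusted p = 0.022, limma). At day 90, 7 of 11 were called, with differences of 0.06 to 0.51. After 75th percentile scaling the count was 0 of 11 at day 90 and 11 of 11 at day 110. For the fibre markers the same change of scaling took the called number at day 110 from 4 to 8 of 9, all higher in MS.

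CKB, the brain form, moved against the other kinases. Its only probe, O10122, read 11.43, 11.87 and 12.25 (n = 8) in LW at day 90 and 9.90, 10.28 and 10.67 (n = 9) at day 110. In MS it read 10.59, 10.91 and 11.48 (n = 8) and then 9.74, 10.04 and 10.51 (n = 7). LWMS went from 10.67, 11.02 and 11.40 (n = 8) to 9.80, 10.02 and 10.61 (n = 8), and MSLW from 10.74, 11.32 and 11.60 (n = 8) to 9.91, 9.76, 10.08, 10.14 and 10.39. The days did not overlap in any genotype.

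CKB fell by 1.56 ± 0.13 on the log2 scale in LW (adjusted p = 2.1e-15, limma), and by 0.95 ± 0.14 in MS. It fell by 0.85 ± 0.14 in LWMS and by 1.20 ± 0.16 in MSLW. It was lower at day 110 on each of the 8 slides. At day 90 it was lower in MS than in LW by 0.86 ± 0.14 on the log2 scale (adjusted p = 1.8e-06, limma), though the ranges met. At day 110 the difference was -0.26, with a 95% interval from -0.54 to 0.01 (adjusted p = 0.12, limma). The difference in age change between the breeds, 0.60 ± 0.19, had an adjusted p of 0.029 (limma) and missed the threshold. Beside the fall of fibroblast and endothelial markers given above, nerve and Schwann cell markers moved both ways, with 3 of 6 higher and 1 lower at day 110 in LW and 1 of 6 higher and 1 lower in MS. The part of these cells in the fall of CKB was not tested.

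**Figure D3:**
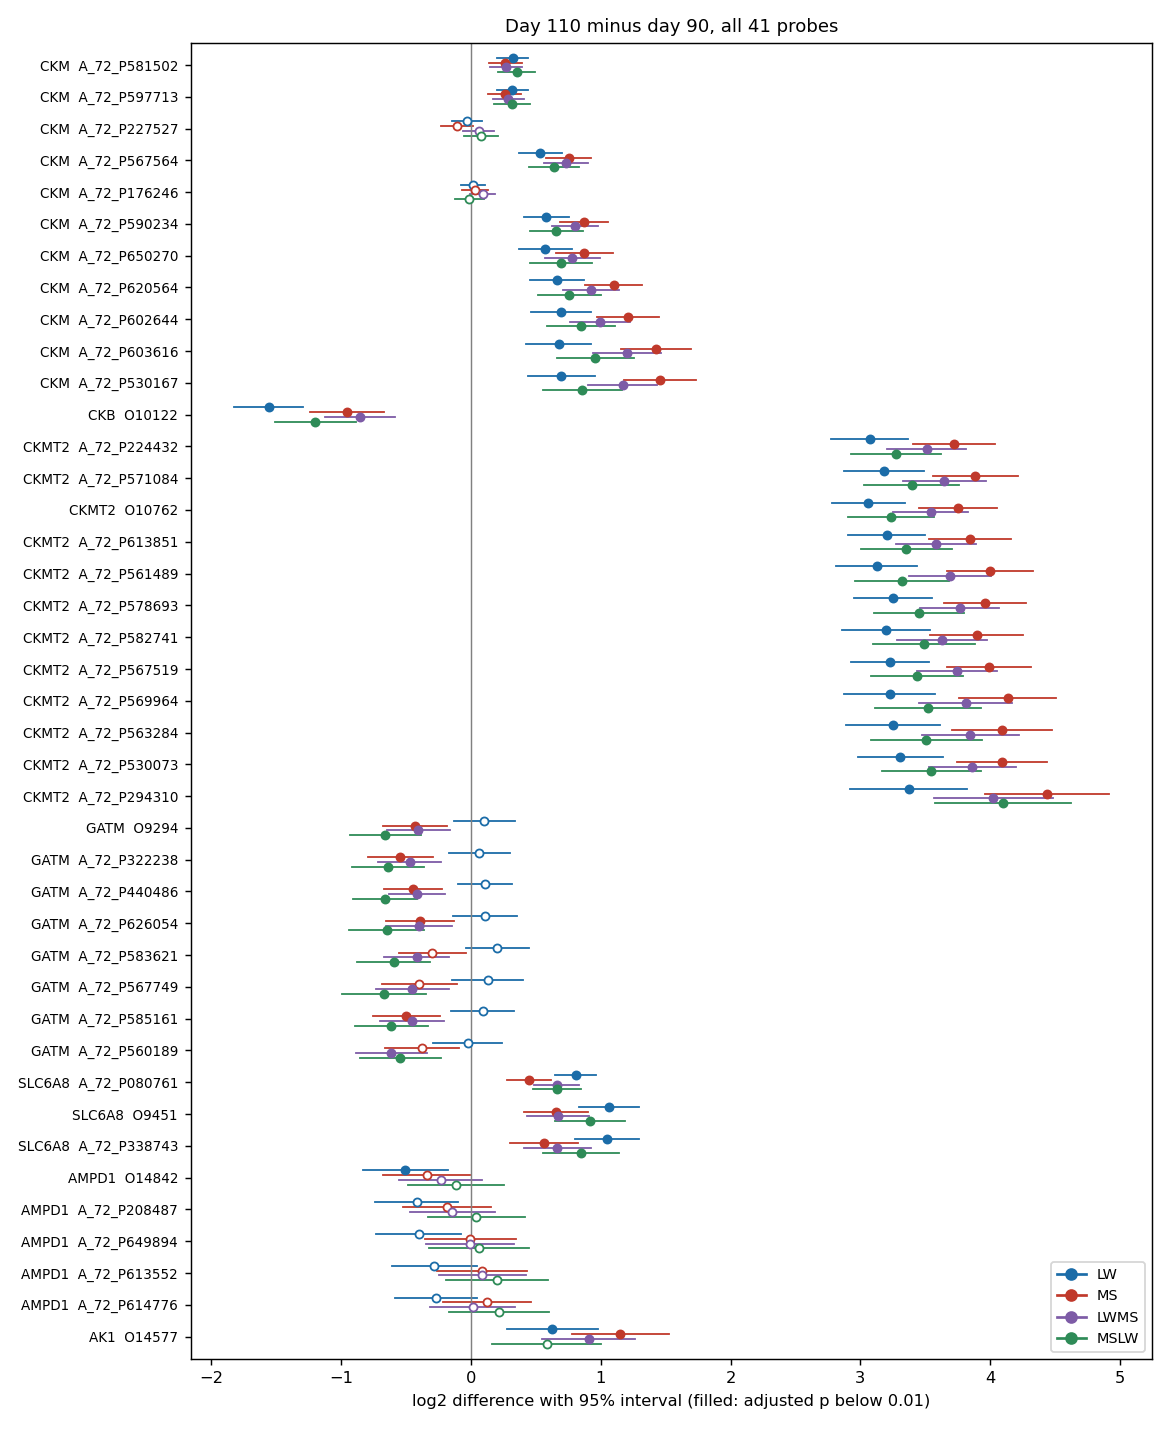
Day 110 minus day 90 (log2, with the 95% interval) for all 41 probes in LW, MS, LWMS and MSLW, filled where the adjusted p was below 0.01. The CKMT2 points lie above 3, CKB lies below 0, and the GATM probes lie near 0 in LW and below 0 in the other genotypes.

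The creatine transporter SLC6A8 rose with age. Its brightest probe read 8.85, 8.93 and 9.13 (n = 8) in LW at day 90 and 9.43, 9.73 and 10.11 (n = 9) at day 110, and in MS 9.18, 9.27 and 9.44 (n = 8) and then 9.53, 9.65 and 10.06 (n = 7). LWMS read 8.99, 9.19 and 9.31 and then 9.60, 9.88 and 10.08, each from 7 of the 8 fetuses because the software marked the spot as non-uniform on the other array. MSLW read 8.95, 9.10 and 9.41 (n = 8) and then 9.58, 9.86, 9.98, 9.61 and 9.94. The days did not overlap in any genotype for this probe.

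SLC6A8 rose by 0.81 ± 0.08 in LW (1.75-fold, adjusted p = 4.4e-13, limma), and by 0.45 ± 0.08 in MS (1.36-fold). It rose by 0.66 ± 0.09 in each cross. All 3 probes were called higher in all 4 genotypes, by 0.45 to 1.06. With the non-uniform spots kept, the brightest probe was called in no genotype (adjusted p from 0.25 to 0.55, limma), its SE rose to between 0.59 and 0.70, and its breed call at day 90 was lost too (adjusted p = 0.76, limma). At day 90 the brightest probe was higher in MS by 0.35 ± 0.08 without overlap (adjusted p = 0.0011, limma), and the other 2 probes differed by 0.27 and 0.31 without being called. At day 110 none of the 3 was called, and the brightest differed by -0.02, with an interval from -0.18 to 0.15.

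GATM, which makes guanidinoacetate, the first step to creatine, did not follow the transporter. Its brightest probe read 8.54, 8.84 and 9.12 (n = 8) and then 8.70, 8.88 and 9.56 (n = 9) in LW, and 8.81, 8.98 and 9.22 (n = 8) and then 8.22, 8.54 and 9.08 (n = 7) in MS. LWMS read 8.63, 9.04 and 9.20 (n = 8) and then 8.28, 8.50 and 9.14 (n = 8), and MSLW 8.72, 8.94 and 9.41 (n = 8) and then 8.36, 8.14, 8.32, 8.17 and 8.51. Between days the ranges overlapped in all genotypes but MSLW.

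In LW the age change of this GATM probe was 0.10, with an interval from -0.13 to 0.34. It fell by 0.43 ± 0.12 on the log2 scale in MS (adjusted p = 0.0021, limma), by 0.40 ± 0.12 in LWMS and by 0.66 ± 0.14 in MSLW (adjusted p = 4.3e-05, limma). Of the 8 GATM probes, limma called none in LW, where also none had an unadjusted p under 0.05. There were 5 called lower in MS and all 8 in each cross. Between breeds, 4 of 8 were called lower in MS at day 110, with differences of -0.42 to -0.27, and 0 of 8 at day 90. The difference in age change was -0.53 ± 0.17 for the brightest probe (adjusted p = 0.027, limma), and none of the 8 passed the threshold, although 7 had an unadjusted p under 0.05. The fall is thus called in 3 genotypes and not in LW, while the difference between MS and LW itself was not called.

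AK1, the muscle adenylate kinase, had levels of 13.66, 14.13 and 14.56 (n = 8) and then 14.07, 14.80 and 15.78 (n = 9) in LW, and 13.58, 14.23 and 14.57 (n = 8) and then 14.96, 15.20 and 15.83 (n = 7) in MS. LWMS read 13.72, 14.36 and 14.86 (n = 8) and then 14.84, 15.23 and 15.64 (n = 8). MSLW read 13.99, 14.54 and 14.64 in 7 of its 8 fetuses of day 90, 1 spot being left out as non-uniform, and then 15.50, 15.13, 14.29, 15.45 and 14.65. Only MS had no overlap between days.

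AK1 rose by 0.63 ± 0.17 in LW (adjusted p = 0.0018, limma), by 1.15 ± 0.19 in MS (adjusted p = 2.9e-07, limma) and by 0.91 ± 0.18 in LWMS. In MSLW the change was 0.58 ± 0.21 (adjusted p = 0.016, limma), which missed the threshold. It was 0.76 without replicate 3 of day 110 and 0.67 without replicate 5, and both of these passed. Over all the alternatives listed below, it ran from 0.46 to 1.11, with an adjusted p as high as 0.079 (limma). With 75th percentile scaling AK1 was called in all 4 genotypes, with rises of 0.98, 1.79, 1.39 and 1.11 in LW, MS, LWMS and MSLW. At day 110 AK1 was higher in MS by 0.56 ± 0.18, with an adjusted p of 0.0098 (limma), just inside the threshold, and by 0.84 after 75th percentile scaling. A second AK1 probe, A_72_P313558, which carries no symbol on the array and was matched through its RefSeq gene, gave 0.60, 1.08, 0.90 and 0.61 for the age changes in LW, MS, LWMS and MSLW. It gave 0.52 for MS against LW at day 110, with an adjusted p of 0.011 (limma), just outside.

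AMPD1, the muscle AMP deaminase, had no clear age change. Its brightest probe read 14.52, 14.73 and 14.88 in 7 of 8 LW fetuses at day 90 (1 non-uniform spot left out) and 13.64, 14.08 and 15.22 (n = 9) at day 110, and in MS 14.38, 15.00 and 15.29 (n = 8) and then 13.95, 14.66 and 15.31 (n = 7). LWMS read 14.32, 14.77 and 14.98 (n = 8) and then 14.01, 14.51 and 15.32 (n = 8), and MSLW 14.76, 14.84 and 15.33 (n = 8) and then 14.85, 14.69, 14.78, 14.99 and 14.63. The days overlapped in every genotype for all 5 probes.

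The change of this AMPD1 probe was -0.50 ± 0.16 in LW (adjusted p = 0.0068, limma) and between -0.34 and -0.11 in the others, and it was the only called age change of the 5 AMPD1 probes in the 4 genotypes. After 75th percentile scaling 1 other was called, in MS. The change of O14842 was then -0.13 in LW and was not called, and it turned to 0.32, 0.28 and 0.43 in MS, LWMS and MSLW, so no direction is given for the age change of AMPD1. The breed difference at day 110 was higher in MS for all 5 probes, by 0.36 to 0.79, of which 3 were called; after 75th percentile scaling all 5 were called, at 0.64 to 0.97. For A_72_P614776, LW read 11.92, 12.34 and 13.35 (n = 9) and MS 12.64, 13.36 and 14.00 (n = 7) at day 110, which is a difference of 0.79 ± 0.16 (adjusted p = 9.9e-05, limma) with overlapping ranges.

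**Figure D4:**
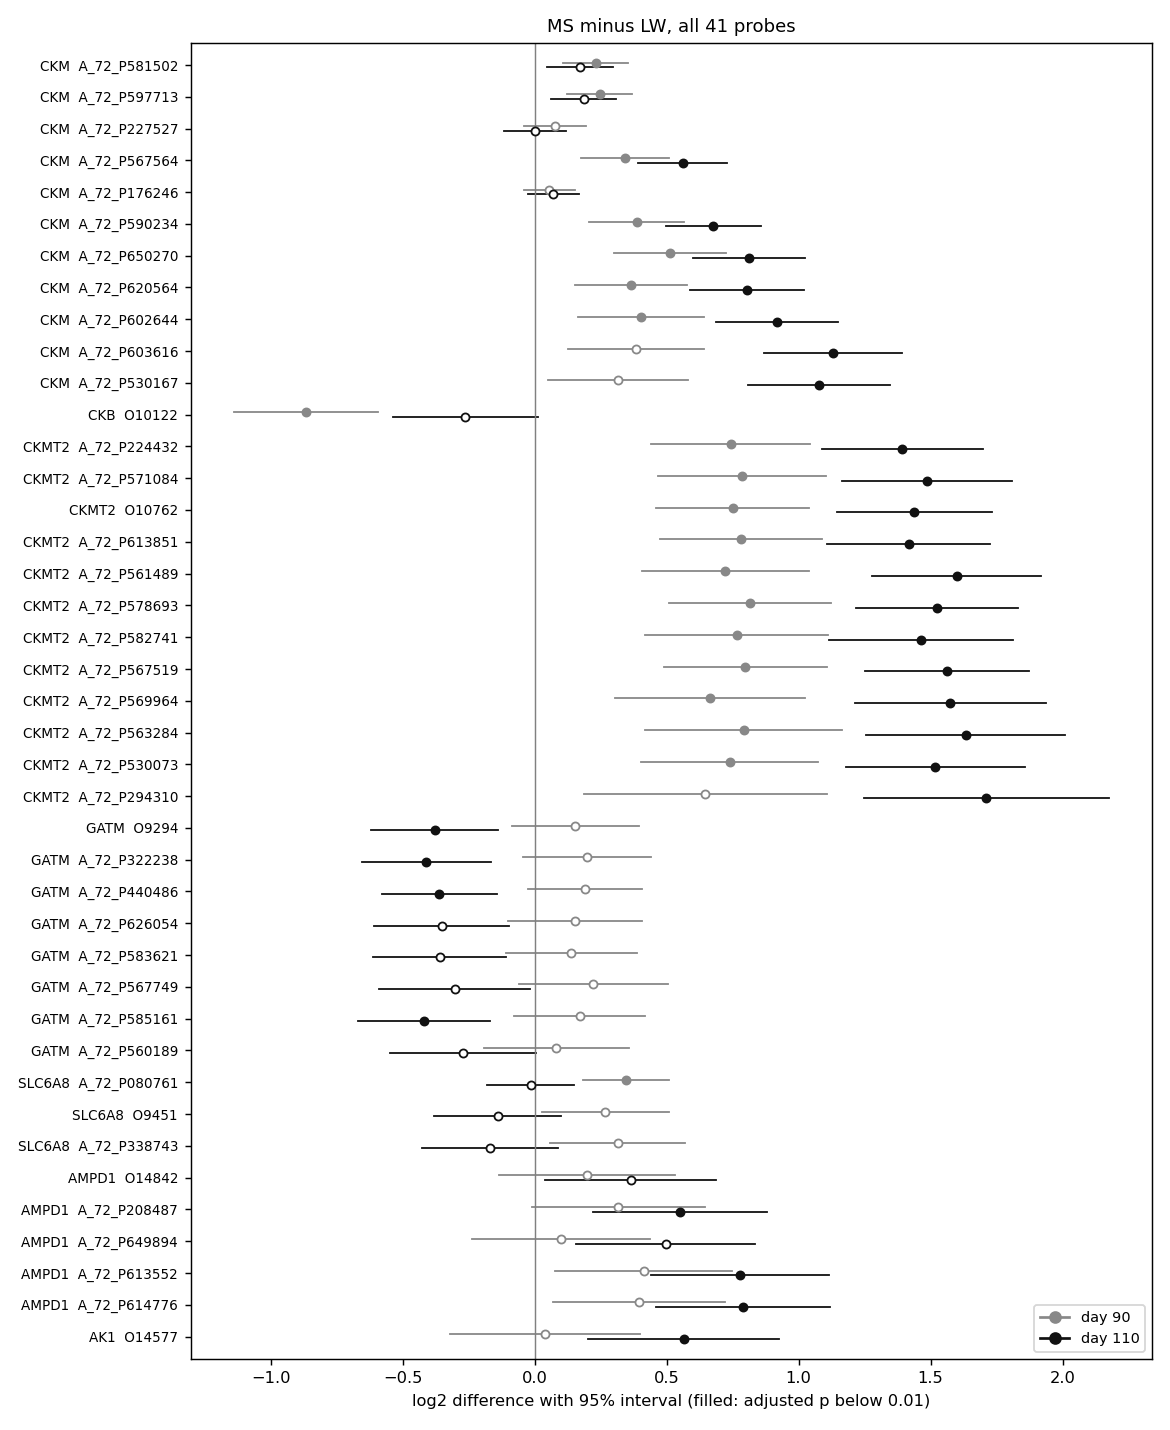
MS minus LW (log2, with the 95% interval) at day 90 (grey) and day 110 (black) for all 41 probes, filled where the adjusted p was below 0.01. The CKMT2 probes lie at 0.65 to 0.81 at day 90 and at 1.39 to 1.71 at day 110, and CKB lies at -0.86 at day 90.

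Over all members, 20 of 41 probes were called between MS and LW at day 90, where 12.8% of all probes were called, and 27 of 41 at day 110, where 29.0% were called. The age change itself differed between MS and LW for 3 of 41 probes against 5.95% of all probes, all 3 with a larger rise in MS: CKM A_72_P603616 (0.75 ± 0.18, adjusted p = 0.0039, limma), CKM A_72_P530167 (0.76 ± 0.19, adjusted p = 0.0044, limma) and CKMT2 A_72_P561489 (0.88 ± 0.23, adjusted p = 0.0060, limma). That CKMT2 probe, which shares 42 bases with the brightest one, read 10.63, 10.89 and 11.26 (n = 8) and then 13.47, 14.18 and 14.76 (n = 9) in LW, and 11.16, 11.70 and 12.00 (n = 8) and then 15.50, 15.67 and 15.80 (n = 7) in MS, with no overlap between days or, at day 110, between breeds. Both CKM probes and the CKB probe stand on the study's list of probes with an interaction of age and genotype, which was chosen on these samples. At an unadjusted p under 0.05 the number was 30 of 41. After 75th percentile scaling 20 of 41 were called, with 7 CKM and 11 CKMT2 probes higher and 2 GATM probes lower. The share of all kept probes was not counted for either number. That scaling also moved the age change of the brightest probes of the array more in MS than in LW, as given above.

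The reciprocal crosses were compared to ask whether it matters which parent brings which breed. Of the 41 probes, 0 were called between MSLW and LWMS at day 90 (0.5% of all probes) and 0 at day 110 (0.912%) in limma, and at an unadjusted p under 0.05 there was 1 at each day. For CKMT2 the difference at day 110 was -0.16, with an interval from -0.51 to 0.18, and for CKB it was -0.07, from -0.38 to 0.24. SLC6A8 lies on the X chromosome, which these males have from the sow, and it differed by -0.07, from -0.26 to 0.12. Set against the mean of the purebred groups, the mean of the crosses was called for 0 of 41 probes at day 90 (0.0495% of all) and 0 at day 110 (0.0778%) in limma. At an unadjusted p under 0.05 there were 10 probes at day 90, 9 of them CKMT2, and 18 at day 110, of which 7 were GATM, with differences of -0.40 to -0.19 over the 8 GATM probes. The lowest adjusted p of the 41 probes was 0.87 at day 90 and 0.046 at day 110 (limma). The share of all kept probes at the unadjusted level was not counted, and probes of the same gene are not independent readings.

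Other genes of the same pathways were taken from 5 lists, each gene by its brightest kept probe. Of all kept probes, 21.8% were called higher and 23.5% lower at day 110 in LW, and 28.6% and 28.1% in MS. The shares were 25.1% and 25.7% in LWMS and 20.8% and 23.8% in MSLW. They are over all probes and not over the brightest probe of each gene. They belong to the reported fit, and no such shares were counted for 75th percentile scaling. Among mitochondrial ATP export genes and partners of the creatine kinases, 9 of 11 had a kept probe, and 7 were called higher at day 110 and 1 lower in every genotype. The median change was 0.68 in LW and 0.95 in MS, against 0.03 over all kept probes in both. The 75th percentile scaling gave 1.06 and 1.64, with 7 higher and 0 lower. Under it the rise was called larger in MS for 5 of 9 genes where the reported fit called 0. As given above, this scaling raised the age change of the array's brightest probes more in MS than in LW. ATP5B, the beta subunit of ATP synthase, rose by 1.09 in LW and 1.23 in MS, or by 1.42 and 1.97 after 75th percentile scaling. SLC25A4, the ADP/ATP carrier of muscle, rose by 1.08 and 1.06, and VDAC3, an outer membrane channel, by 1.15 and 0.99. After 75th percentile scaling the order of the breeds was reversed, with 1.38 and 1.80 for SLC25A4 and 1.5 and 1.6 for VDAC3. Neither difference between the breeds was called. SLC25A6, another ADP/ATP carrier, fell by 0.43 on the log2 scale in LW and by 0.67 in MS. That direction depended on the scaling, since after 75th percentile scaling SLC25A6 changed by -0.15 in LW and by 0.08 in MS without a call.

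Among adenylate and purine enzymes 18 of 23 genes had a kept probe, and they moved both ways, with 6 higher and 8 lower in LW and 5 higher and 6 lower in MS. Their median change, -0.11 in LW and 0.00 in MS, became 0.18 and 0.17 after 75th percentile scaling. AMPD2, the AMP deaminase of non-muscle cells, fell by 1.86 on the log2 scale in LW and by 2.57 in MS, and it was lower in MS at day 110 by 1.16 ± 0.12. NT5E, which makes adenosine outside the cell, fell by 1.47 in LW and by 1.85 in MS, and PNP, a purine salvage enzyme, fell by 1.05 and by 1.56. ADSL and ADSSL1, which turn IMP back to AMP in the purine nucleotide cycle, rose by 0.88 and 0.58 in LW and by 1.01 and 1.06 in MS. AK4, a mitochondrial adenylate kinase, rose by 0.78 and 0.82, though its 9 kept probes ran from -0.02 to 1.02 in LW.

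Among genes that supply or use up arginine, glycine and methyl groups, 23 of 27 had a kept probe. The counts mix both kinds and do not measure supply. In LW 7 were higher and 6 lower at day 110, with a median of 0.22, and in MS 14 were higher and 3 lower, with a median of 0.64. The counts were 11 higher and 6 lower in LW and 16 higher and 2 lower in MS after 75th percentile scaling. GNMT, which uses S-adenosylmethionine to methylate glycine, was not well above background in any LW or MSLW fetus at day 90 and was so in all fetuses at day 110. It was at least 17.8-fold higher at day 110 in LW and at least 9.08-fold higher in MSLW, against the lowest signal well above background. The GNMT probe entered the fit only through groups of day 110, so no test of its rise is given. In MS and LWMS only 1 and 2 of 8 fetuses measured it at day 90, so no fold is given. The fetuses of day 90 lay between 2.46 and 4.28 in MS and between 1.97 and 5.84 in LWMS, below all those of day 110, which began at 7.26 and 6.59. SLC38A4, an amino acid transporter, rose by 2.54 in LW and by 3.34 in MS, and was higher in MS at both days.

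ARG2, the mitochondrial arginase that splits arginine to ornithine and urea, went in opposite directions in the breeds. LW read 7.55, 7.91 and 8.27 (n = 8) at day 90 and 5.51, 6.29 and 8.72 (n = 9) at day 110, while MS read 7.49, 7.79 and 8.09 (n = 8) and then 10.05, 12.27 and 12.96 (n = 7). It fell by 1.44 ± 0.39 on the log2 scale in LW and rose by 3.93 ± 0.41 in MS, a difference in age change of 5.37 ± 0.57 (adjusted p = 2.9e-09, limma), and its other kept probe changed by -0.85 and 3.76. SLC7A7, a transporter of arginine and other amino acids, fell by 1.36 in LW and by 1.54 in MS, but its 5 kept probes disagreed, from -1.36 to 1.29 in LW. Of the serine synthesis enzymes, PSAT1 fell by 1.07 and by 0.64, and PSPH fell by 1.30 in LW and changed by -0.55 in MS without a call.

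Among the sites that muscle creatine kinase serves or docks to, 9 of 11 genes had a kept probe, of which 6 were higher and 2 lower in LW and 7 higher and 1 lower in each other genotype. Their median change was 0.31 for LW and 0.78 for MS. After 75th percentile scaling the medians were 0.58 and 1.07, with 6 higher and 1 lower in LW and 8 higher and 1 lower in MS. The fast myosin heavy chains MYH4 and MYH1 rose by 1.84 and 1.82 in LW and by 1.66 and 1.24 in MS, and the calcium pump of fast fibres, ATP2A1, by 1.29 and 0.83. How far the rise of MYH4, MYH1 and ATP2A1 was smaller in MS depended on the scaling. After 75th percentile scaling MYH4 rose by 2.15 in LW and 2.38 in MS, so its order was reversed. MYH1 then rose by 2.13 and 1.97 and ATP2A1 by 1.59 and 1.56, each still less in MS. In the reported fit the difference in age change of ATP2A1 was called, at -0.45 ± 0.11 (adjusted p = 0.0038, limma). After 75th percentile scaling it was -0.03 and was not called (adjusted p = 0.93, limma). Embryonic myosin, MYH3, fell by 1.31 ± 0.21 on the log2 scale in LW and by 3.58 ± 0.22 in MS. The kept probes of MYH4, MYH1 and ATP2A1 disagreed, for MYH4 from -1.25 to 2.35 in LW. MYOM1, the M-band protein myomesin, fell by 0.24 in LW and was not called in the others, and after 75th percentile scaling it changed by 0.12 in LW without a call and rose by 0.81 in MS.

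Among transcription factors known at the CKM enhancer, 13 of 14 had a kept probe, and 7 were called lower and 2 higher in LW and in MS. This depended on the scaling. With 75th percentile scaling 4 were lower and 2 higher in LW, and 5 lower and 3 higher in MS. Their median change, -0.30 for LW and -0.46 for MS, became -0.08 and 0.07 after 75th percentile scaling. MYF5, MYOG and MYOD1, the myogenic factors of precursor cells and early fibres, fell by 1.48, by 0.78 and by 0.73 on the log2 scale in LW and by 1.97, by 1.08 and by 1.29 in MS. Their other probes moved less in part, with the 4 MYF5 probes between -1.97 and 0.10 and the 2 MYOD1 probes between -1.29 and -0.36 in MS. MEF2D, which was not well above background on every array of day 90, rose by 1.21 and 1.13, and SIX4 by 0.27 and 0.25. SRF was called in MSLW alone, with a rise of 1.79, where 1 of 8 fetuses of day 90 was not well above background, at 4.17 against a median of 11.50, and the median at day 110 was 12.41.

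Genes whose values varied most like a member across fetuses were sought among 7512 named genes with probes well above background on all arrays, by the Pearson correlation of residuals from group and slide means, as a description with no test. For CKMT2 they were ISOC2 (r = 0.74), MRPL2 (0.73) and HIBADH (0.71), over 61 fetuses. For AK1 they were TECR (0.81), RAB3A (0.79) and PGAM2 (0.79), over 60 fetuses, and for CKM BANF1 (0.72), PI4K2A (0.70) and PTCD2 (0.69). For GATM they were NTAN1 (0.69), RETREG1 (0.65) and IGBP1 (0.65), and for AMPD1 KCTD15 (0.68), CISD1 (0.68) and GFM2 (0.64). The values were lower for SLC6A8, with RANBP10 (0.57), ZNF276 (0.56) and MTOR (0.56), and for CKB, with CCDC85B (0.54), NME3 (0.52) and GJA5 (0.52). All points share the normalisation, and arrays that differ in quality can raise such values.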

How the data were processed

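Total RNA of 61 fetal muscles was hybridised to 1 colour arrays, 1 array per fetus, on 8 slides that each held 6 to 8 of the 8 groups. The authors deposited scanner files with spot intensity values, made with Agilent Feature Extraction 10.10.1.1 and not normalised between arrays, and a table of log2 values that they quantile normalised, with 44368 spots, used here as an alternative. Each array had 34346 to 45683 probes well above background, at most 2 saturated spots and 4 to 802 spots marked as non-uniform, which were left out. The number of arrays limits the precision.

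The background-subtracted intensity was quantile normalised, log2 transformed and averaged per probe. Probes entered the fit when at least 1 group had 80% of its arrays well above background for them. The 8 group means were fitted with limma 3.58.1 in R 4.3.3, with two-sided moderated tests and Benjamini-Hochberg adjustment over all kept probes at 1%. The study's random sow effect was left out, since the labels do not give the sow. The fit was tested on simulated data.

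The members, lists and tests were chosen with earlier results of these data known. Genes of the lists are named by a rule: in each direction at most 3 genes with the largest mean age change among those called in at least 1 genotype. PHGDH is named in addition, beside PSAT1 and PSPH. Alternatives were the spot's median signal, the deposited values, normexp background correction (offset 50), 75th percentile scaling, other probe filters, keeping marked spots, the slide as a block, only the genotypes compared, each MSLW fetus of day 110 left out, and the mean of all probes of a gene. Names came from the array, the study's gene lists and RefSeq.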

Additional observations from a re-analysis of the deposited data

Results flagged for a closer look

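A fetus far from the rest of its group was sought for the brightest probe of each of 7 genes in 8 groups. Of these 56 groups, 5 had one, where chance gives about 1 in 20. In CKM the lowest MSLW fetus of day 90 was at 17.68, with the next at 18.13. In CKMT2 the highest LWMS fetus of day 90 was at 12.97, with the next at 12.13. In GATM the highest LW fetus of day 110 was at 9.56, with the next at 9.02. In AMPD1 the lowest LWMS fetus of day 90 was at 14.32, with the next at 14.73, and the highest MSLW fetus of day 90 was at 15.33, with the next at 14.97.

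By the limma test of the difference, the rise with age was called larger in MS than in LW for CKM A_72_P603616 (0.75), CKM A_72_P530167 (0.76) and CKMT2 A_72_P561489 (0.88). These are 2 of 11 CKM and 1 of 12 CKMT2 probes, and 3 of all 41, against 5.95% of all kept probes. Both CKM probes stand on the study's interaction list, which was chosen on these samples, so their test is not separate support. Under 75th percentile scaling 18 of the 20 called probes had the larger value in MS, and 2 GATM probes the lower. The share of all kept probes called under that scaling was not counted.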

How the results depend on the processing

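The count of member probes called for an unequal age change in MS and LW, 3 in the reported fit, was 6 with the median spot signal, with the deposited values, with normexp correction and with only probes that every array had well above background, 5 with the slide as a block, 1 with only the genotypes compared and 20 with 75th percentile scaling. The count between MS and LW at day 90 went from 20 to 13 with 75th percentile scaling. Leaving out 1 MSLW fetus of day 110 at a time gave 32 to 34 called in the age change of MSLW and 0 between the crosses at day 110. For these alternatives the share of all kept probes called was not counted, so the counts describe the members only. The cause was not tested.

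Of 511 values of single genes under the alternatives, 468 kept their direction and side of the threshold, 20 lost the call, 16 gained it and 7 changed direction. With 75th percentile scaling the age change of AMPD1 became 0.32 in MS, while LWMS gave 0.28 and MSLW 0.43, and the difference in age change of CKM became 0.40. With the mean of all probes the latter was 0.29 and the age change of AMPD1 in MSLW was 0.0095. With marked spots kept, SLC6A8 changed by -0.51 in LWMS and lost its age calls in the other genotypes and its breed call at day 90. No paired analysis was possible because replicate numbers only name the fetuses and the labels give no litter, and only the slide could serve as a block.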
